A study of Mus musculus with 4 samples.

Results

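Nmnat2 and 6 other genes of NAD supply and axon survival were followed in aggregates of mouse iMN-ESCs with and without doxycycline (Dox). The 7 genes were Nmnat1, Nmnat2, Nmnat3, Nampt, Sarm1, Mycbp2 and Map3k12, out of 21822 gene units in the count tables. All 7 passed the filter on low counts and were among the 14278 genes tested. Nmnat2 was chosen because it was lower with Dox in these libraries, so its difference is given as a description, with no test. The other 6 were taken for their role in the pathway, and the question was whether they moved as well.

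iMN-ESCs are a C57BL/6 mouse embryonic stem cell line in which Dox switches on Isl1-Lhx3, a fusion of the LIM-homeodomain factors that mark spinal motor neurons. All 4 libraries came from this line, so the group without Dox carried the transgene too. Cells spent 2 days as aggregates in stem cell medium with LIF and 2 days with 0.5 µM all-trans retinoic acid alone. Retinoic acid then continued for 2 to 3 days, either without Dox (2 libraries) or with 2 µg/mL Dox (2 libraries), and the design text calls the replicates biological duplicates. No group received Dox in cells lacking the transgene, so effects of Dox and of the fusion cannot be told apart.

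NAD in neurons is made largely by salvage. NAMPT, the enzyme that limits this route, turns nicotinamide into nicotinamide mononucleotide (NMN), and the NMNAT enzymes join NMN to the adenylyl group of ATP to give NAD. The isoforms are placed differently: NMNAT1 in the nucleus, NMNAT2 on Golgi-derived vesicles and in the axon, NMNAT3 mainly in mitochondria. NMNAT2 is short-lived and must be carried down the axon all the time. When its supply stops, NMN builds up, NAD drops, and SARM1, an NAD-cleaving enzyme, is switched on and the axon breaks down. MYCBP2 (PHR1), a ubiquitin ligase, speeds the removal of NMNAT2, and MAP3K12 (DLK), a kinase upstream of JNK, promotes degeneration and stress signalling after axon injury.

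Counts assigned to genes ran from 24020832 to 53903936 per library. Isl1 and Lhx3 followed the labels, with Lhx3 at 0.286 to 0.404 CPM (counts per 1000000, scaled between libraries) without Dox and at 108 to 125 CPM with it. Counts of these genes can include the transgene. The other 4 motor neuron markers read (Mnx1, Chat, Slc18a3 and Slc5a7) were called higher in the Dox libraries, a call being an adjusted p under 0.05. Of all genes tested, 1.23% were called higher and 0.056% lower, 1.28% in all, and the median log2 fold change was -0.01. Markers of extraembryonic endoderm were abundant in every library, with a summed level of 10900 to 12300 CPM over 6 genes, most of it the laminin gene Lama1. The RNA therefore held endodermal as well as neural transcripts. In such bulk RNA, fewer cells of a type and less RNA per cell cannot be told apart.

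Nmnat2 stood at 15.8 and 17.5 CPM in the libraries without Dox and at 5.06 and 3.83 CPM in those with Dox. The groups lay well apart, and the libraries within each were close. These levels rest on 430 and 430 counts without Dox and on 189 and 209 counts with it. The level with Dox was 0.266 times that without, a log2 fold change of -1.91 (SE 0.21, n = 2 libraries a group).

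The lower level ran along the whole Nmnat2 gene. The deposited tables split the gene into 11 parts, and in all 11 both libraries with Dox lay below both libraries without it, as the summed counts did in 19.9% of all genes tested. Parts of a gene share reads and libraries, so they are not separate measurements. The log2 ratio of group means was -1.04 in part 8, the smallest difference, and -2.58 in part 6, the largest. The last part, an exon of 3694 bases at the 3′ end, held most of the counts, with 10.2 and 13.5 CPM without Dox, against 3.08 and 3.00 CPM with it. The first 10 parts together gave 5.54 and 4.0 CPM without Dox, against 1.98 and 0.824 CPM with it. Both portions were therefore lower, with log2 ratios of -1.97 and -1.77. The counts behind the first 10 parts were few, 151 and 98 without Dox and 74 and 45 with it.

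**Figure D1:**
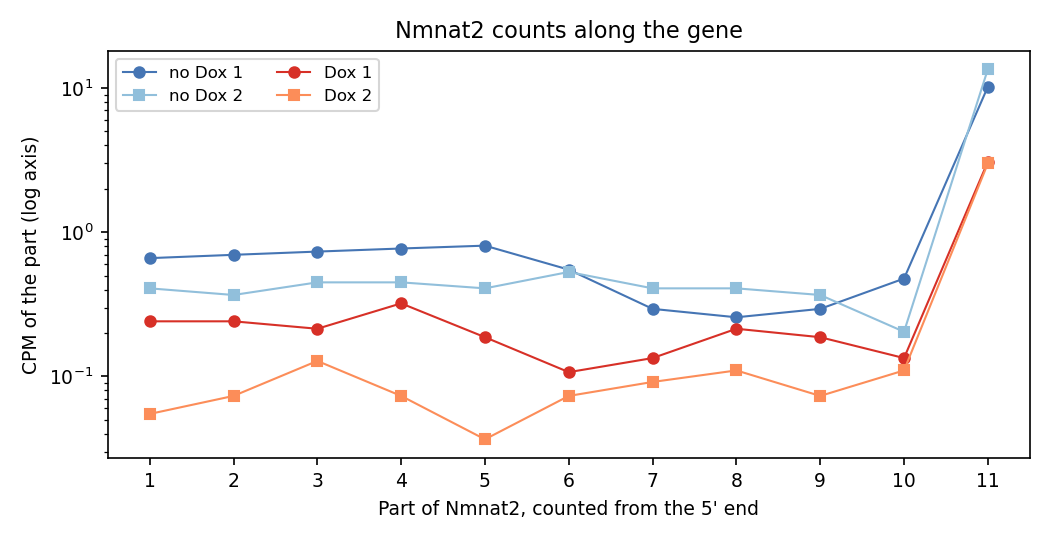
CPM (log axis) in each of the 11 parts of Nmnat2, counted from the 5′ end, in the 4 libraries. Both Dox libraries (red and orange) lie below both libraries without Dox (blues) in every part, and part 11 holds most of the counts.

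Neither of the other NMNAT genes was called. Nmnat1, the nuclear isoform, was read at 8.92 and 12.9 CPM without Dox, against 9.84 and 10.3 CPM with Dox. The libraries with Dox lay between those without it. Its log2 fold change was -0.11 (SE 0.22, 95% interval -0.66 to 0.43, adjusted p = 0.955 in edgeR's quasi-likelihood test). All 5 parts of Nmnat1 overlapped between the groups.

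Nmnat3, the mitochondrial isoform, was close to the limit of what these libraries could show. It had 14 and 7 counts without Dox and 15 and 28 with it, or 0.514 and 0.286 CPM against 0.401 and 0.512 CPM. The groups overlapped, and the log2 fold change was 0.19 (SE 0.48, adjusted p = 0.969 in edgeR). Its 95% interval was wide, from -0.97 to 1.35, and holds 0 as well as sizeable changes of Nmnat3 in either direction.

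Levels of different genes were compared per kb of exon, with lengths from a later genome build. A read that crosses parts may enter each of them, so these levels can also depend on how a gene is split. Nmnat1 held the largest share of the NMNAT family in every library, with 7.20 and 10.4 CPM per kb without Dox and 7.95 and 8.29 with it. Nmnat2 came next, at 3.41 and 3.79 CPM per kb without Dox and 1.09 and 0.827 with Dox. Nmnat3 stayed between 0.132 and 0.237 CPM per kb.

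The make-up of the family differed accordingly. Nmnat2 held 31.4% and 26.4% of the summed NMNAT level per kb in the libraries without Dox and 11.8% and 8.84% in those with Dox. The share of Nmnat1 was 66.4% and 72.6% without Dox and 86.2% and 88.6% with it. These shares restate the Nmnat2 difference and are no separate result.

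**Figure D2:**
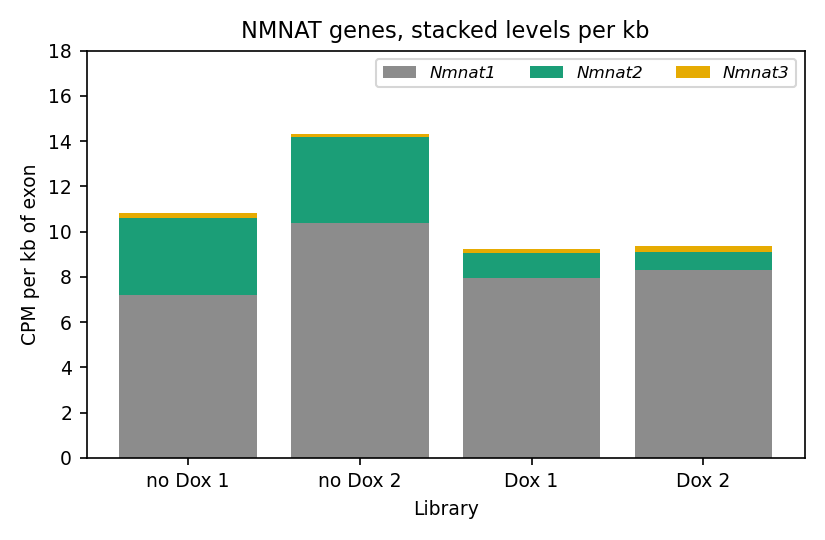
Levels of Nmnat1, Nmnat2 and Nmnat3 in each of the 4 libraries, in CPM per kb of exon, stacked. The Nmnat2 segment spans 3.41 and 3.79 without Dox but 1.09 and 0.827 with Dox, while the Nmnat1 segments of the groups overlap.

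Nampt, the enzyme upstream of the NMNATs, was among the most abundant of the 7 genes. It was read at 230 and 162 CPM without Dox, against 174 and 166 CPM with Dox. One library without Dox stood above the other 3, which were close to each other. The log2 fold change of -0.20 was small against this spread (SE 0.18, 95% interval -0.65 to 0.24, adjusted p = 0.833 in edgeR). All 11 parts of Nampt had a log2 ratio just below 0, from -0.31 to -0.09, and the groups overlapped in 10 of them. Per kb, Nampt was at 2.49 to 4.69 times the summed level of the 3 NMNAT genes.

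Sarm1, the NAD-cleaving executor of axon breakdown, was low in all libraries, at 8.55 and 5.75 CPM without Dox, against 5.83 and 3.84 CPM with Dox. The groups overlapped by a narrow margin. The log2 fold change was -0.57 (SE 0.31, 95% interval -1.32 to 0.18), with an adjusted p = 0.644 in edgeR. The interval holds 0 as well as sizeable decreases. Of its 10 parts, 9 had a log2 ratio below 0, on as few as 0 to 3 counts in the thinnest part. The groups overlapped in 5 parts, and in 5 both Dox libraries lay below both others. By summed counts, 19.9% of all genes tested did so. The part at the 3′ end was among these 5, at 3.85 and 3.35 CPM without Dox, against 3.00 and 2.23 CPM with Dox.

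Mycbp2, the ubiquitin ligase that acts on NMNAT2, was the most abundant of the 7 genes in CPM. Its level was 596 and 457 CPM without Dox, against 568 and 498 CPM with Dox, so the Dox libraries lay inside the range of the others. Its log2 fold change was 0.02 (SE 0.17, 95% interval -0.40 to 0.44, adjusted p = 0.997 in edgeR). Of its 85 parts, 79 overlapped between the groups.

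Map3k12 (DLK) was at 43.5 and 52.2 CPM without Dox, against 54.8 and 61.3 CPM with Dox. Both Dox libraries were above both others, as in 18.9% of all genes tested. The log2 fold change of 0.28 did not pass the test (SE 0.14, 95% interval -0.06 to 0.62, adjusted p = 0.602 in edgeR). The log2 ratio was above 0 in 14 of its 16 parts and below 0 in 2, both with 3 or fewer counts in every library. Both Dox libraries lay above both others in 6 parts and below them in 1, and the groups overlapped in 9. Exons of Map3k12 overlap those of Pcbp2, an RNA-binding protein gene on the other strand, and whether the counting used strand is not given, so some reads of one gene may have been counted for the other.

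Of the 6 genes other than Nmnat2, edgeR therefore called 0, against 1.28% of all genes tested. With no adjustment of p the number was also 0, where 6.25% of all genes were higher and 4.01% lower. DESeq2 and limma-voom called 0 each, against 3.63% and 1.27% of all genes. A share of 0 among 6 genes is near the background. These fits held no term for the replicate number, which the labels give no meaning. With a replicate block, edgeR called 1 of the 6 higher, Map3k12, and 1 lower, Sarm1. That fit called 7.31% of all genes higher and 6.04% lower.

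**Figure D3:**
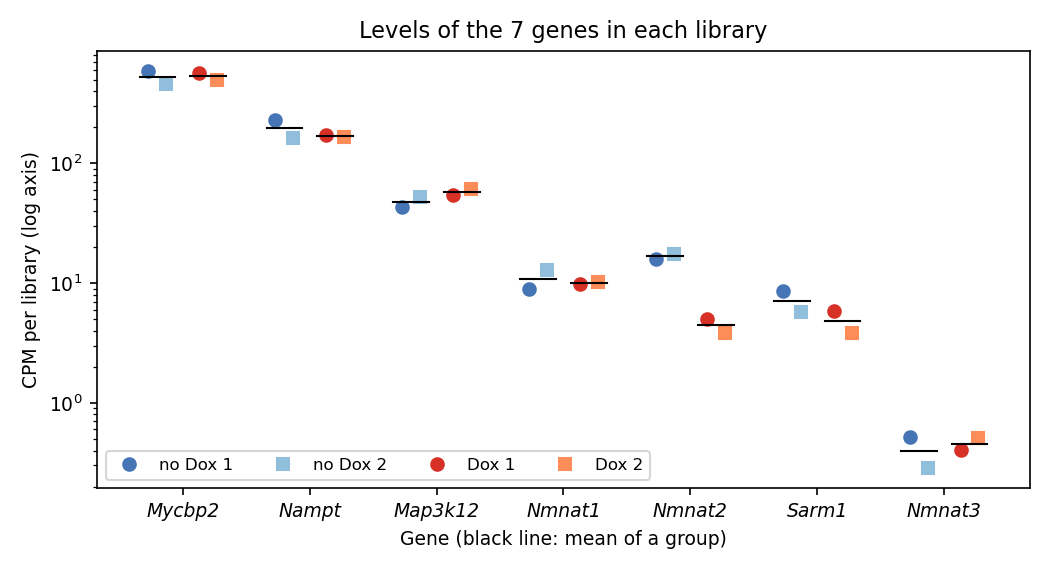
CPM (log axis) of the 7 genes in each library, with blue points for no Dox and red or orange points for Dox, and black lines for group means. The groups stand apart for Nmnat2 (15.8 and 17.5 against 5.06 and 3.83 CPM) and, by a small margin, for Map3k12, and they overlap for the other 5 genes.

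The 3′ end of the genes weighed more in the libraries with replicate number 2. The last part held 64.9% and 77.2% of the Nmnat2 counts in no Dox replicates 1 and 2, and 60.8% and 78.5% in Dox replicates 1 and 2. For Sarm1 these shares were 45.1%, 58.2%, 51.4% and 58.1%, and for Mycbp2 they were 6.12%, 12.3%, 6.55% and 10.9%. Within each group the share was higher in replicate 2 for 6 of the 7 genes, with Nmnat1 the exception. Each group holds 1 library of either replicate number. Whether the weight of the 3′ end bears on the Nmnat2 difference was not tested.

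No gene was called on a list of NAD synthesis and related steps. Of 19 listed, 12 had enough counts to be tested and edgeR called 0 higher and 0 lower, with 2 higher and 0 lower at an unadjusted p under 0.05 and 0 calls by DESeq2 and limma-voom. The median log2 fold change was 0.01, beside -0.01 for all genes. The members with the highest levels were NAD kinase genes and a carrier, which do not themselves make NAD. Nadk, the cytosolic NAD kinase, was at 108 and 123 CPM without Dox, against 115 and 116 CPM with Dox (log2 fold change 0.00, SE 0.12). Nadk2, the mitochondrial NAD kinase, was at 153 and 95.6 CPM against 111 and 92.3 CPM, and Slc25a51, the mitochondrial NAD carrier, had a log2 fold change of 0.02 (SE 0.11). Kmo, an enzyme of the kynurenine route, was at 0 in all 4 libraries. Of the other genes of the route from tryptophan, Haao, Ido1, Ido2 and Tdo2 did not reach the count needed for a test. Afmid, at 4.70 to 7.71 CPM, and Kynu, at 0.428 to 0.879 CPM, were tested and not called. The genes higher before adjustment were Qprt, which feeds the product of that route into NAD, and Acmsd, which diverts the route away from NAD, both named after their values were seen. Qprt was at 0.734 and 0.816 CPM without Dox, against 2.03 and 2.47 CPM with it, a log2 fold change of 1.54 (SE 0.31) that did not pass (adjusted p = 0.107 in edgeR). Acmsd was at 0.110 and 0.0816 CPM without Dox, against 0.348 and 0.348 CPM, a log2 fold change of 1.81 (SE 0.58) that did not pass either (adjusted p = 0.324 in edgeR).

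Nor did edgeR call any other enzyme that consumes NAD. Of 12 listed beside Sarm1, 11 were tested and edgeR called 0 in either direction, against 1.28% of all genes. At an unadjusted p under 0.05, 1 was higher and 0 lower, against 6.25% and 4.01% of all genes. DESeq2 called 1 higher and limma-voom 0, against 3.63% and 1.27% of all genes. The median log2 fold change was -0.01. Parp1, which spends NAD in DNA repair, was at 593 and 449 CPM without Dox, against 491 and 392 CPM with Dox (adjusted p = 0.80 in edgeR). Parp2, a relative of it, had a log2 fold change of -0.16 (SE 0.13) and Sirt2, an NAD-dependent deacetylase, one of -0.01 (SE 0.11). The gene that DESeq2 called was Parp3, named after its values were seen, at 1.21 and 2.53 CPM without Dox, against 4.49 and 5.18 CPM with Dox (log2 fold change 1.38, SE 0.37, adjusted p = 0.225 in edgeR).

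Genes of NMNAT2 turnover and palmitoylation were read next, together with Stmn2. FBXO45 and SKP1 are partners of MYCBP2 in its ubiquitin ligase, ZDHHC17 attaches palmitate to NMNAT2, LYPLA1 and LYPLA2 (APT1 and APT2) are enzymes that remove palmitate, and STMN2 is another short-lived axonal protein. All 6 were tested and edgeR called 0, with 0 at an unadjusted p under 0.05 and 0 by DESeq2 and limma-voom. The log2 fold changes ran from -0.43 to 0.08 with a median of -0.11. Skp1 was at 229 and 253 CPM without Dox, against 205 and 211 CPM with Dox, Lypla1 had a log2 fold change of -0.11 (SE 0.12) and Lypla2 one of 0.03 (SE 0.12). The lowest value was that of Stmn2, named after its values were seen, at 30.6 and 28.1 CPM without Dox, against 26.3 and 17.5 CPM with Dox (adjusted p = 0.606 in edgeR).

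In the DLK and JNK cascade 1 gene was called, where edgeR called 1.28% of all genes tested. Jun, the transcription factor that JNK phosphorylates, rose from 53.1 and 48.8 CPM without Dox to 155 and 150 CPM with Dox. Libraries of a group were nearly equal and the groups stood far apart. This is a log2 fold change of 1.58 (SE 0.11, 95% interval 1.31 to 1.86, adjusted p = 0.00351 in edgeR), and the call held under all 12 alternative settings. Of 12 genes listed beside Map3k12, all 12 were tested, and the 11 others, with the kinases Map2k4, Map2k7, Mapk8, Mapk9 and Mapk10 and the injury-response genes Atf3 and Ddit3, were not called. The list had a median of -0.03. At an unadjusted p under 0.05, 1 gene was higher and 1 lower, beside 6.25% and 4.01% of all genes. The lower gene was Mapk10, named after its values were seen. It was at 2.61 and 1.67 CPM without Dox, against 1.34 and 0.952 CPM with Dox (log2 fold change -0.92, SE 0.36, adjusted p = 0.468 in edgeR). DESeq2 and limma-voom each called 1 gene, again Jun, beside 3.63% and 1.27% of all genes.

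No gene of axon breakdown and apoptosis was called. All 15 were tested, and edgeR, DESeq2 and limma-voom called 0 each, as did an unadjusted p under 0.05. Their log2 fold changes ran from -0.19 to 0.42 with a median of 0.10. Apaf1, which assembles the apoptosome, was at 225 and 172 CPM without Dox, against 197 and 175 CPM with Dox. Xiap, a caspase inhibitor, and Capn2, a calpain protease, had log2 fold changes of 0.10 (SE 0.11) and 0.11 (SE 0.11). Over all 5 lists, edgeR called 1 of 56 tested genes, beside 1.28% of all genes.

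**Figure D4:**
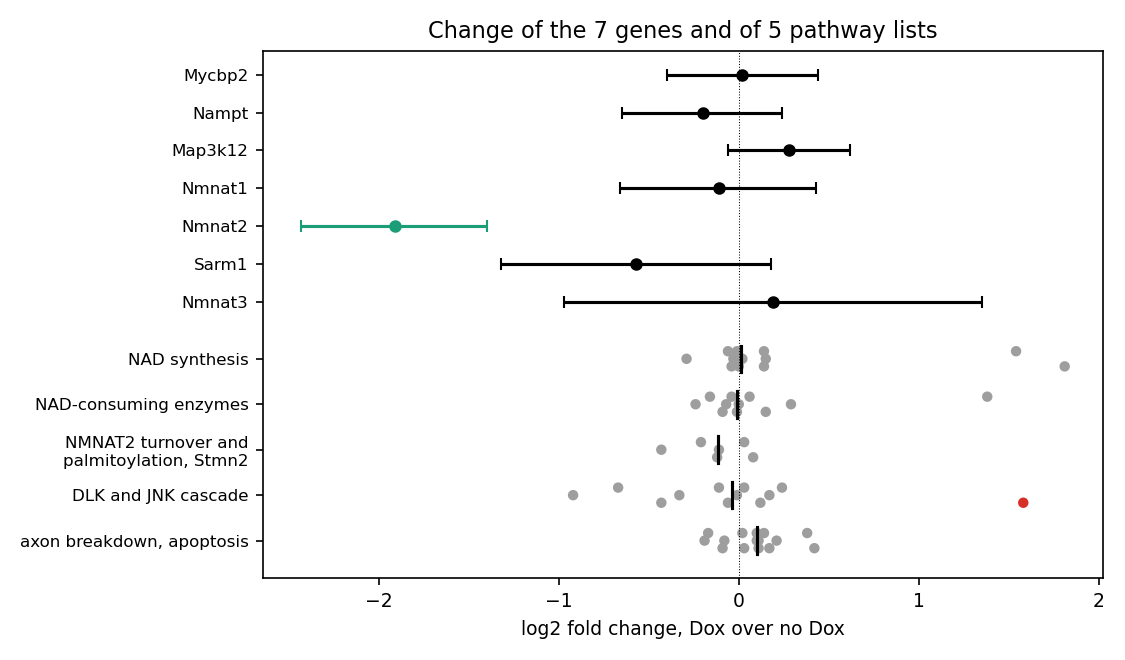
Log2 fold change, Dox over no Dox, of the 7 genes (points with 95% intervals from edgeR) and of the tested genes of 5 pathway lists (1 point a gene, black bar for the list's median, red for genes at an adjusted p under 0.05). Nmnat2, chosen for its fall, lies at -1.91, and its interval is drawn as a description only. The intervals of the other 6 genes include 0, and Jun, at 1.58, is the red point.

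Nmnat2 is a neuronal gene, so markers of neurons and of the other cells in the aggregates were read beside it. The interneuron markers were lower in sum, at 80.7 and 64.5 CPM without Dox, against 35.4 and 24.8 CPM with Dox over 10 genes. Of the 9 tested, 8 had a log2 fold change below 0, the median was -1.39, and edgeR called 1 lower, Pou4f1. At an unadjusted p under 0.05, 7 were lower. Of all genes tested, 0.056% were called lower and 4.01% were lower before adjustment.

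General neuronal markers did not move as one. Summed over 11 genes they were at 800 and 609 CPM without Dox, against 1490 and 1240 CPM with Dox, with most of the difference in the neurofilament genes. Of the 11, edgeR called 2 higher, Nefm and Gap43, and 0 lower, beside 1.23% and 0.056% of all genes. Before adjustment 4 passed 0.05 as higher and 3 as lower, beside 6.25% and 4.01% of all genes, and the median was -0.38. Tubb3, a neuronal tubulin, was at 79.0 and 83.8 CPM without Dox, against 59.8 and 42.7 CPM with it, and Map2, a dendritic protein gene, was at 90.1 and 68.8 CPM against 53.5 and 46.2 CPM. In both genes the Dox libraries lay below the others, as in 19.9% of all genes tested. Neither passed the test (adjusted p = 0.216 and 0.186 in edgeR).

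Neural progenitor markers were at 1350 and 1150 CPM in sum without Dox and 1120 and 880 CPM with Dox. All 6 had a log2 fold change below 0, with a median of -0.69, and edgeR called 0. Before adjustment 4 were lower at a p under 0.05, beside 4.01% of all genes. The endoderm markers had a median of 0.05, with 0 called and 0 at an unadjusted p under 0.05. Summed levels of pluripotency markers were 9.43 to 13.3 CPM and those of endothelial markers 26.6 to 52.2 CPM, with 0 called in either list. At an unadjusted p under 0.05, 1 endothelial gene was higher, beside 6.25% of all genes. Of the 3 fibroblast markers tested 2 were called higher, Col1a1 and Col3a1, beside 1.23% of all genes. Col1a2 overlapped between the groups and was not called (log2 fold change 0.46, adjusted p = 0.717 in edgeR). Dcn had too few counts to be tested. The list held 28.7 and 34.4 CPM without Dox, against 119 and 102 CPM with it. Of the 3 astroglial markers tested 1 was called higher, Aqp4, beside 1.23% of all genes. Gfap, under 0.5 CPM in all libraries, had a log2 fold change of -1.21 (SE 0.63) and was not called. Aldh1l1, at 0.32 (SE 0.34), was not called either, and S100b had too few counts to be tested. The part of these cell types in the Nmnat2 difference was not tested.

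**Figure D5:**
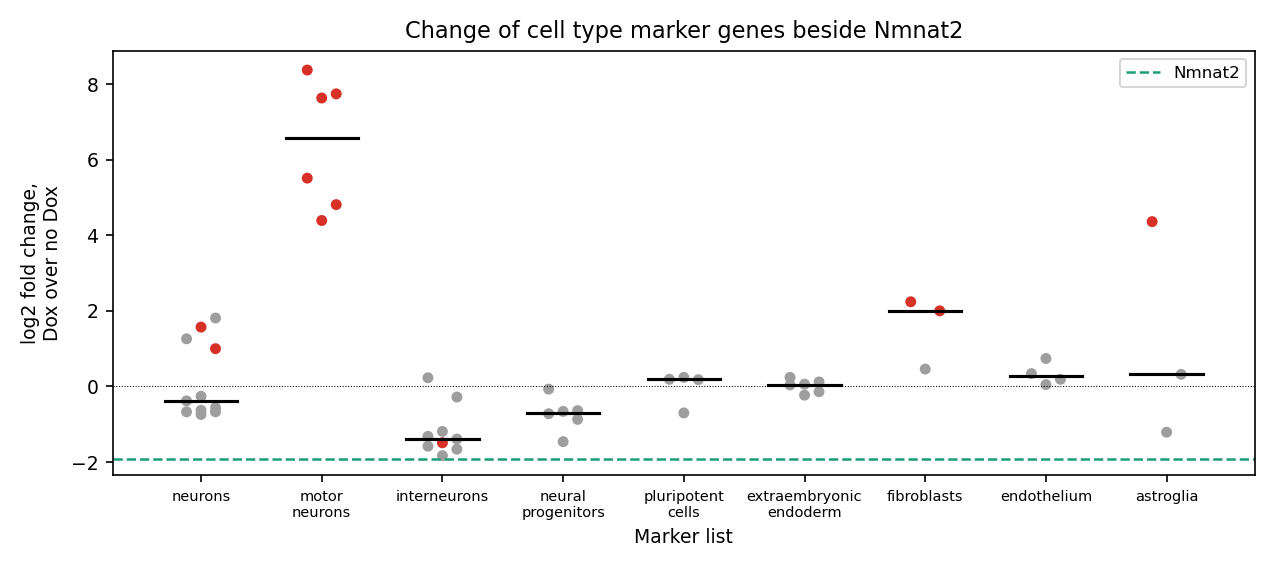
Log2 fold change, Dox over no Dox, of the tested genes in 9 lists of cell type markers (1 point a gene, black bar for the list's median, red for genes at an adjusted p under 0.05). The dashed line marks Nmnat2 at -1.91, and the interneuron markers, with a median of -1.39, have the lowest median of the 9 lists.

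Genes averaging 5 CPM or more were considered, leaving out predicted or provisional gene names and units with no single gene name. The genes whose pattern over the 4 libraries was most like that of Nmnat2 were picked from these by distance between centred log2 CPM values. They were Lgr5 (distance 0.31), Minar2 (0.37), Ndnf (0.42), Sp5 (0.44) and Pou4f1 (0.46). Lgr5 encodes a receptor for R-spondins that augments Wnt signalling, Sp5 a zinc-finger factor induced by Wnt, Ndnf a secreted neuronal factor, and Pou4f1 (Brn3a) a transcription factor of sensory and dorsal spinal neurons. As the measure picks genes that are lower with Dox by a like amount, their levels are a description. Lgr5 was at 32.5 and 30.4 CPM without Dox, against 10.6 and 8.97 CPM with it, and Minar2 at 7.05 and 9.34 CPM against 3.10 and 2.29 CPM. Sp5 was at 8.66 and 9.38 CPM against 3.96 and 2.42 CPM. Of the other 6 genes of the pathway, Sarm1 had the smallest distance, 1.44, which was rank 559 among 14277 genes other than Nmnat2, and Nmnat3 the largest, 2.26.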

How the data were processed

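The labels' titles give 2 libraries without and 2 with Dox. The authors deposited whole-number counts, 1 table a library, for 208825 parts of genes named by RefSeq transcripts. The submitters' processing notes name TopHat and build mm9. For the counting tool, its annotation and strand use, the sources used here give nothing. A read that crosses parts may enter each of them, and part sums can then exceed reads. The 4 rows that name no gene stayed out; reads outside genes were 13.6% to 15.8% of all counts. Parts were summed to 21822 gene units, and 97.1% of transcript identifiers were named from RefSeq (GRCm38.p6) and GENCODE M21. That build is later than mm9, so it gave names, part order, lengths and overlaps but no coordinates.

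The test was run in edgeR 4.0.16 under R 4.3.3 (quasi-likelihood F test, robust dispersions, TMM scaling, default filter, Benjamini-Hochberg over 14278 genes at 0.05). DESeq2 1.42.0 and limma 3.58.1 were alternatives. No library repeated another: chi-square over degrees of freedom between replicates was 36.5 and 32.6. Intervals and SEs come from edgeR.

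The genes, lists and rules were chosen with earlier results of these data known. Named are the 7 genes, up to 4 called genes a list or else the 3 with the highest mean CPM, and the 5 genes nearest to Nmnat2 in centred log2 CPM (prior count 2). For these 5, predicted or provisional gene names and units with no single gene name were left out. A gene first listed among the interneuron markers is not reported here.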

Additional observations from a re-analysis of the deposited data

How the results depend on the processing

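The log2 fold change of Nmnat2 ran from -2.12 to -1.70 under the 12 alternatives. As Nmnat2 was chosen for its fall in these same libraries, the kept direction is a description and no support. The number of genes called depended on the setting. Against 175 genes higher and 8 lower, the fits with 1 library left out gave 271 to 280 higher. Those lower were 116 with Dox replicate 1 left out and 19 for Dox replicate 2; among the controls, dropping replicate 1 gave 24 and dropping replicate 2 gave 91. The counts were 295 higher and 46 lower with no filter, 104 and 4 when only genes averaging 5 CPM were tested, and 403 and 116 with DESeq2. With library totals as the scaling 16 were lower, and with each gene represented by its largest part 14. Leaving out a library leaves 1 in its group, which is then assumed to vary like the other group. Of the 6 other genes, 0 were called without any 1 library, as under the other settings apart from the replicate block. Pathway genes called higher were 1 to 2 without 1 library and 2 with DESeq2, against 1; the added gene was Parp3, both without no Dox replicate 2 and with DESeq2.

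The replicate numbers have no stated meaning in the labels. Libraries of the same number deviated together from their group means (correlation 0.521 across genes), but with 2 pairs and no shared source in the labels the numbers were not taken to pair the libraries. With a replicate block, edgeR called 1044 genes higher (7.31% of those tested) and 862 lower (6.04%). Of the 6 genes it called 1 higher, Map3k12 (0.28, adjusted p = 0.0395; 0.0395 to 1 over all alternatives), and 1 lower, Sarm1 (-0.57, adjusted p = 0.0352; 0.0352 to 1). Of the pathway genes it called 4 higher (Jun, Qprt, Parp3 and Capn1) and 4 lower (Stmn2, Mapk10, Mapk8ip1 and Mapk8ip2).

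Small changes turned sign when 1 library was left out. The log2 fold change then ran from -0.35 to 0.17 for Nmnat1, -0.16 to 0.69 for Nmnat3, -0.44 to 0.08 for Nampt, -0.16 to 0.23 for Mycbp2, -0.08 to 0.10 for Nadk, -0.59 to 0.09 for Nadk2, -0.03 to 0.08 for Slc25a51, -0.02 to 0.02 for Sirt2, -0.05 to 0.13 for Lypla2 and -0.28 to 0.12 for Apaf1. The range was -0.90 to -0.25 for Sarm1 and 0.16 to 0.42 for Map3k12, with no change of sign. Nadk, at 0.00, was at 0.01 with DESeq2 size factors, DESeq2, the 5 CPM filter and the largest part, at 0.02 with library totals and no filter, and at 0.00 with limma-voom and the replicate block. Sirt2 was at 0.01 with library totals, no filter and the 5 CPM filter. None of these values passed the test, and the cause of the sign changes was not tested. Nmnat3 could not be tested with the 5 CPM filter or the largest part.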
